A study of Mus musculus with 162 samples.

Results

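The leukotriene pathway was followed through 9 genes out of the 46078 that each library lists. They were chosen by name for their place in the pathway, with no measured value in the rule: the phospholipases Pla2g4a and Pla2g4e, the synthesis genes Alox5, Alox5ap, Lta4h and Ltc4s, and the receptors Ltb4r1, Ltb4r2 and Cysltr1. The Ensembl identifiers of all 9 matched a symbol in the GENCODE M21 annotation (GRCm38), and all 9 had enough counts to be tested in every skin comparison. In trigeminal ganglia Ltb4r2 could be tested in 2 of 8 comparisons only, and in spinal cord in 2 of 3.

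Leukotrienes are inflammatory lipids made from arachidonic acid. Cytosolic phospholipase A2 frees the fatty acid from membranes, 5-lipoxygenase (Alox5) oxidises it with the help of the membrane protein FLAP (Alox5ap), and the product is turned either into LTB4 by LTA4 hydrolase (Lta4h) or into the cysteinyl leukotrienes by LTC4 synthase (Ltc4s). LTB4 attracts neutrophils through its high-affinity receptor BLT1 (Ltb4r1), BLT2 (Ltb4r2) is a receptor of lower affinity that keratinocytes carry, and Cysltr1 binds the cysteinyl leukotrienes. In skin, LTB4 is known both as a neutrophil attractant and as an itch mediator.

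The libraries came from adult male C57BL/6 mice, 8 to 12 weeks old, whose cheek (for skin and trigeminal ganglia, the ganglia holding the sensory neurons of the face) or back (for spinal cord) received MC903, a vitamin D analogue that produces a dermatitis resembling atopic dermatitis, or its vehicle ethanol once per day. MC903 was used at 0.2 mM, 20 µl on the cheek. Day 1 is 6 hours after the first application. Uninjected wild-type skin was sampled with 4 ethanol and 4 MC903 libraries at day 1, 2 and 3 at day 2, 3 and 3 at day 5, and 6 and 5 at day 8. Day 8 skin was also taken from wild-type mice injected with PBS (3 ethanol, 2 MC903) or with 250 µg of aGr1, an antibody given to deplete neutrophils (4 and 4), from TSLPR.KO mice (2 and 3), which lack the receptor gene Crlf2, and from BLT1.KO mice (3 and 3). TSLPR.KO skin was sampled again at day 12 (3 and 4). Trigeminal ganglia covered the same groups apart from BLT1.KO, with 2 to 5 libraries each, and spinal cord covered day 8 of wild-type mice without injection (5 and 4), with PBS (2 and 2) and with aGr1 (6 and 8). The 18 wild-type day 12 libraries were left out. The TSLPR.KO line was backcrossed to C57BL/6, the BLT1.KO allele is not described in the sources used here, the wild-type mice are not stated to be littermates of either, and the sources used here do not give whether each library is 1 mouse, so the p-values measure the spread between libraries.

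The 144 libraries held 15931871 to 67342879 counts on genes, with a median of 27654801.5, and the 6 BLT1.KO libraries were among the deepest, with 49050822 to 67342879. Keratinocyte markers (5 genes) were high in all skin groups and spinal cord markers (5 genes) in all cord groups. Skeletal muscle transcripts were also abundant in skin, and their share differed with treatment: at day 8 the summed level of 4 muscle genes was 2785 to 13018 cpm (counts of a gene divided by all gene counts of its library and scaled to the same total in every library) with ethanol and 1493 to 2959 with MC903, while keratinocyte genes stood at 5421 to 7097 and 11442 to 22650.3. The part of such shifts in the results below was not tested. In bulk tissue, fewer cells of a type and less RNA per cell cannot be told apart. The skin library of day 2 MC903 replicate 3 also held sensory neuron transcripts (1048 cpm over 6 genes, against 9.74 to 11.4 in the other day 2 libraries). Neutrophil markers (9 genes) were not lower in the aGr1 libraries: with MC903 they summed to 66.4 to 114.1 cpm, against 36.3 to 86.4 in uninjected and 74.7 to 93.7 in PBS-injected mice. These are sums of RNA in bulk skin and not cell counts. The study counted cells by flow cytometry and reported fewer neutrophils in skin and blood of MC903 mice given aGr1 at day 8. In ganglia the counts of Crlf2, the gene deleted in TSLPR.KO mice, went against some labels. The library labelled uninjected wild-type ethanol day 8, number 2 of cohort B (cohorts A and B are the 2 sets of uninjected day 8 libraries told apart by the style of their titles), held 4 Crlf2 counts (0.117 cpm), within the 0 to 0.228 cpm of the libraries labelled TSLPR.KO at day 8, where the other wild-type ganglia libraries held 1.15 to 7.58 cpm. The 8 ganglia libraries labelled TSLPR.KO at day 12 held 38 to 81 Crlf2 counts (0.907 to 2.06 cpm), overlapping the wild-type range.

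In uninjected wild-type skin the members that rose with MC903 were the phospholipases and the LTB4 receptors, joined at day 8 by Lta4h just past the threshold; Alox5, Alox5ap and Ltc4s, the other synthesis genes, were not called higher there. At day 1, 1 of 9 members passed the edgeR quasi-likelihood test at an adjusted p under 0.05, Alox5, which fell, against 13% of the 24749 genes tested in either direction and 7.47% called lower. At day 2 none did and 0% of the 24580 genes tested passed. An unadjusted p under 0.05 was held by 1190 of these 24580 genes, Ltb4r1 and Pla2g4e among them. That is about the share that this threshold passes when nothing changes. DESeq2 called 280 genes at day 2 and no member. At day 5, 3 of 9 members rose, against 14.9% of genes called in either direction and 8.15% called higher. At day 8, 5 of 9 rose, against 23.4% in either direction and 12.2% higher. The median log2 fold change of the 9 members was -0.22 at day 1, -0.07 at day 2, 0.32 at day 5 and 0.54 at day 8, where the median of all genes tested was 0.00, 0.09, -0.03 and -0.03.

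The other skin groups gave a wider range of counts. In PBS-injected mice 3 of 9 members rose (3.99% of genes were called, 3.26% higher) and in aGr1-injected mice 7 of 9 rose (32.6%, 15.1% higher). In TSLPR.KO skin at day 8 none passed in edgeR (2.45%; 3631 genes had an unadjusted p under 0.05, and DESeq2 called 2 members), and at day 12, 3 rose and 1 fell (10% of genes were called, 5.41% higher and 4.62% lower). In libraries labelled BLT1.KO 4 rose (28.6%, 14.1% higher). Shares of genes called move with the number of libraries and their spread, so counts cannot be compared between groups directly. Over the 9 skin comparisons Pla2g4e and Ltb4r2 were called higher in 6 each, Ltb4r1 in 5, Pla2g4a in 4, Lta4h, Alox5ap and Ltc4s in 1 each and Cysltr1 in none, and Alox5 was called higher in 1 and lower in 2.

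**Figure D1:**
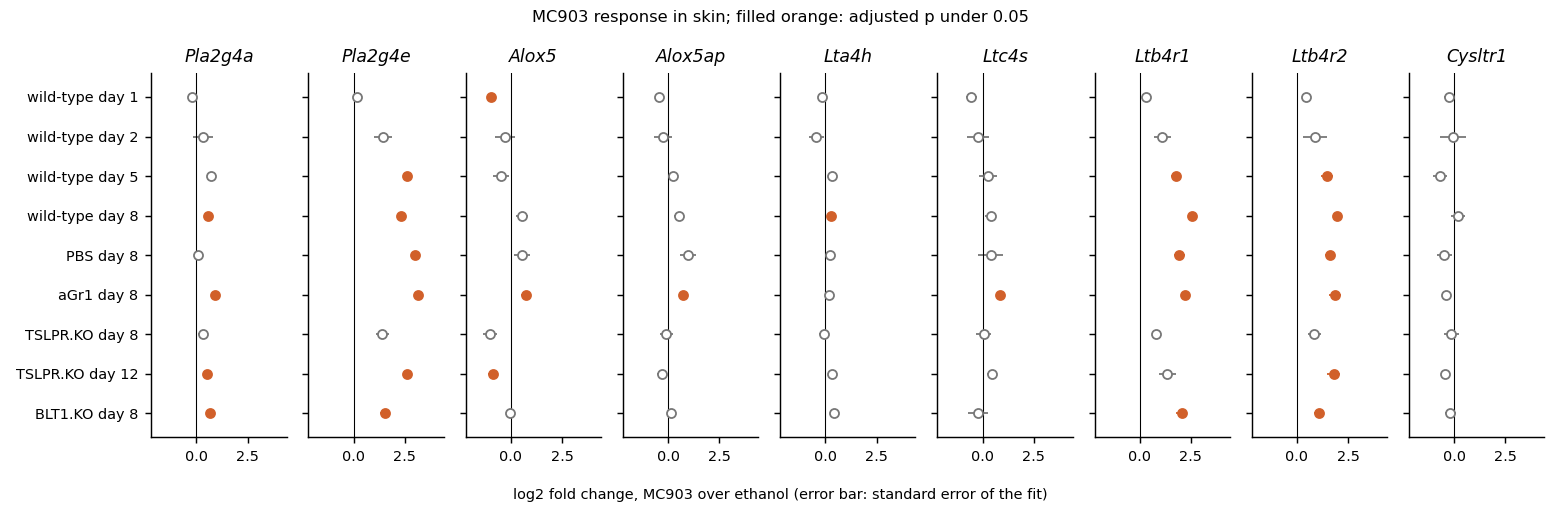
Fitted log2 fold change of MC903 over ethanol (horizontal axis) for each of the 9 genes in the 9 skin comparisons (rows); error bars are standard errors of the fit and filled orange points have an adjusted p under 0.05. Ltb4r1, Ltb4r2 and Pla2g4e lie right of 0 in all 9 rows, and Alox5 lies left of 0 in 6.

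Pla2g4e and Pla2g4a encode cytosolic phospholipases A2 of group IV. Pla2g4a makes the enzyme best known for releasing arachidonic acid, whereas Pla2g4e makes a relative known mainly as an N-acyltransferase for the lipid phosphatidylethanolamine. Pla2g4e lies on chromosome 2 (GRCm38, 120166412 to 120245335, minus strand) and Pla2g4a on chromosome 1 (149829618 to 149961290, minus strand). The 250 bases before the annotated start of Pla2g4e, the member with the largest fitted fold in 6 of the 9 skin comparisons, are shown with those of Ltb4r1 and Alox5 further on, so that a phospholipase, a receptor and the gene that fell at day 1 can be set side by side; they were read from RefSeq on GRCm38.p6, in the direction of transcription, 5′ to 3′. This stretch (chr2:120245336-120245585, minus strand) is 43.2% G and C, below the median of 52.4% over all 32851 promoters, and holds no GC box (GGGCGG on either strand), a motif that 32.7% of all promoters hold.
Pla2g4e promoter: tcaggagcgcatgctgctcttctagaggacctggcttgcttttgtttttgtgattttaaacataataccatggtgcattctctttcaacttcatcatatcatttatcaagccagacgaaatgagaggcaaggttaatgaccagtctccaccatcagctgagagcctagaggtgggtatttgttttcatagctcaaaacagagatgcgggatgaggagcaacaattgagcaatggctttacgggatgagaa

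Pla2g4e libraries of both treatments overlapped at day 1 and separated from day 2 on. At 6 hours the ethanol libraries held 22.8, 25.6, 18.1 and 16 cpm and the MC903 libraries 26.7, 25.7, 19.5 and 21.9 cpm, and the groups overlapped. At day 2 the values were 21.4 and 10.1 cpm with ethanol and 56, 42.3 and 31.2 cpm with MC903. These did not overlap, but the log2 fold change of 1.44 ± 0.44 (SE) had an adjusted p of 0.837. Its adjusted p was 0.00271 in 1 fit over days 1 to 8 and 0.000151 in the fit with a replicate block.

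By day 5 Pla2g4e had risen in every MC903 library. The ethanol libraries held 17.2, 15.7 and 11 cpm and the MC903 libraries 105, 95.0 and 87.1 cpm (log2 fold change 2.63 ± 0.15, adjusted p = 8.57e-05). At day 8 the 6 ethanol libraries ran from 17.9 through a median of 24.9 to 35.5 cpm and the MC903 libraries held 96.8, 118.9, 142, 123.1 and 134 cpm. Again no library overlapped (log2 fold change 2.29 ± 0.16, adjusted p = 6.36e-07).

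In the other 5 skin groups every MC903 library held more Pla2g4e than every ethanol library, and the call missed the threshold in 1 of them. PBS-injected mice went from 20.8, 20.8 and 22.7 cpm to 135 and 201 cpm (log2 fold change 3.0 ± 0.21, adjusted p = 0.00181). With aGr1 the ethanol libraries held 13.9, 13.1, 28.3 and 11.1 cpm and the MC903 libraries 161, 142, 209 and 217 cpm (log2 fold change 3.15 ± 0.23, adjusted p = 2.63e-05). In TSLPR.KO skin at day 8, 60.1 and 28.3 cpm with ethanol stood against 142, 102 and 98.3 cpm with MC903. The log2 fold change of 1.39 ± 0.32 had an adjusted p of 0.0557.

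At day 12 TSLPR.KO skin went from 13.4, 23.2 and 11.3 cpm to 99.0, 99.1, 102 and 135 cpm (2.63 ± 0.20, adjusted p = 0.000249). In BLT1.KO skin 65.3, 68.6 and 37.4 cpm with ethanol stood against 150.1, 164 and 185 cpm with MC903 (1.52 ± 0.22, adjusted p = 0.00121). All 3 BLT1.KO ethanol libraries, and 1 of the 2 TSLPR.KO ones of day 8, were above the highest uninjected wild-type ethanol library of day 8 (35.5 cpm). The BLT1.KO MC903 libraries were also above the wild-type ones, which ended at 142 cpm, and the TSLPR.KO MC903 libraries of day 8 were not. Genotype, litter and sequencing run cannot be told apart in this difference of levels.

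Pla2g4a had smaller fitted folds. At day 1 its levels overlapped, 20.2 to 28.7 cpm with ethanol and 21.1 to 25.9 cpm with MC903, and at day 2 they overlapped again, 22.6 and 31.3 cpm against 18.3 to 49.95 cpm. At day 5 the ethanol libraries held 30.4, 27 and 13.2 cpm and the MC903 libraries 38.8, 42.3 and 37.9 cpm, without overlap (log2 fold change 0.71 ± 0.21, adjusted p = 0.055). DESeq2 gave an adjusted p of 0.015 for that comparison, and edgeR gave 0.0407 without ethanol replicate 3, the lowest library.

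At day 8 Pla2g4a rose from a range of 21.1 to 34.4 cpm (median 26.6) to 42.1, 43.6, 39.7, 37.3 and 36.7 cpm, with no overlap (log2 fold change 0.58 ± 0.12, adjusted p = 0.00428). Within cohort B alone, 1 of the 2 sets of day 8 libraries that differ in the style of their labels, the log2 fold change was 0.29 and its adjusted p 0.298. With aGr1 the gene rose from 11.5, 12.9, 22.3 and 12.6 cpm to 44.9, 31.2, 33.5 and 33 cpm (0.92 ± 0.16, adjusted p = 0.00285), and in BLT1.KO skin from 21.2, 20.8 and 25.3 cpm to 35.3, 37.0 and 38.4 cpm (0.68 ± 0.15, adjusted p = 0.00865). In PBS-injected skin the groups overlapped, 24.2 to 29 cpm against 25.6 and 27.3 cpm (0.06 ± 0.18).

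TSLPR.KO skin at day 8 held 29.9 and 29.7 cpm of Pla2g4a with ethanol and 27.6, 45 and 36.8 cpm with MC903, which overlapped. At day 12 the values were 18, 26.1 and 15.1 cpm with ethanol and 30.9, 35.2, 31.6 and 31.1 cpm with MC903 (0.54 ± 0.13, adjusted p = 0.0308). That call was lost when any 1 of the 7 libraries other than MC903 replicate 3 was left out, with adjusted p values of 0.0624 to 0.0972, and with the replicate block (0.204), although all 4 MC903 libraries stood above all 3 ethanol libraries.

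**Figure D2:**
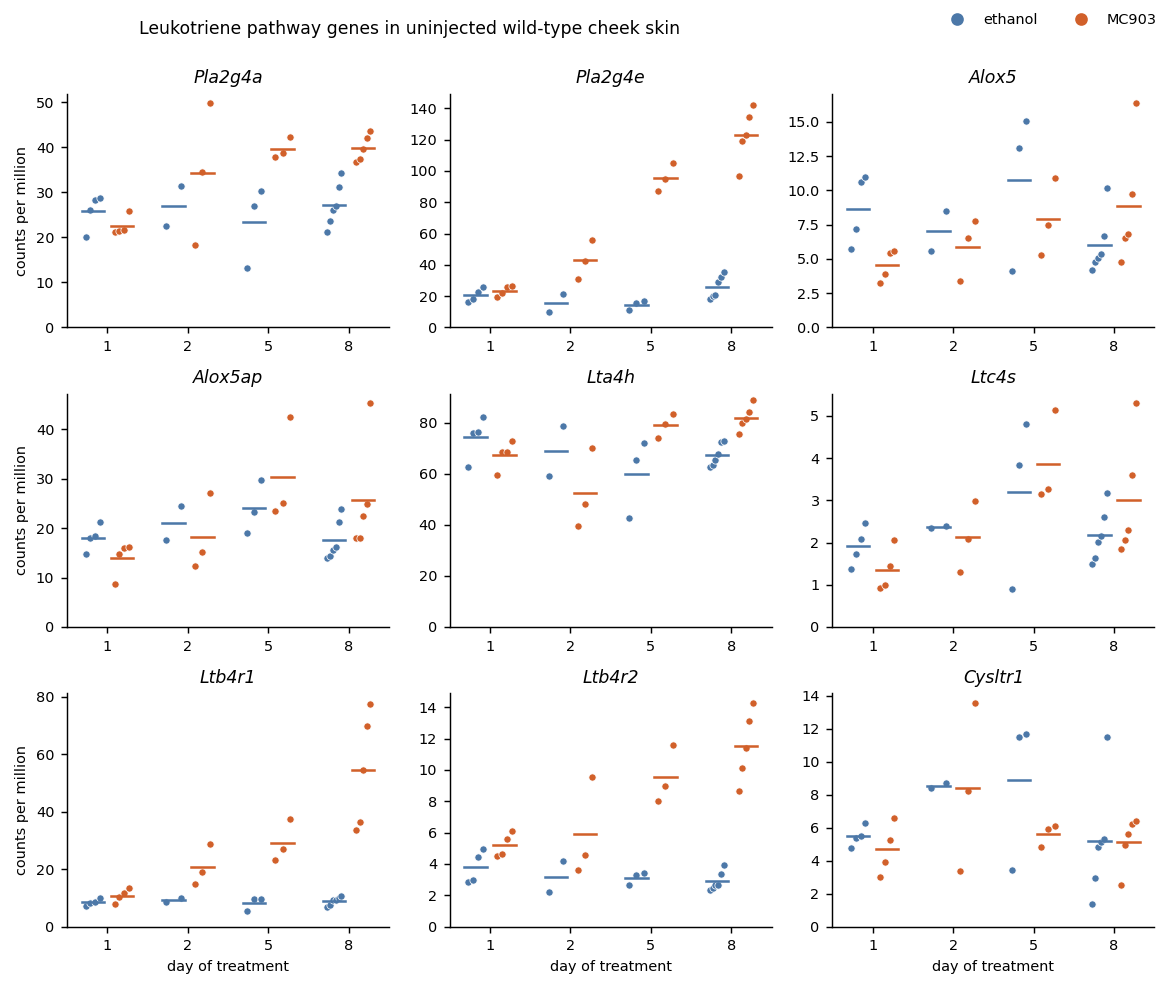
Level in cpm (vertical axis, from 0) of each gene in uninjected wild-type cheek skin against day of treatment; each point is 1 library, blue for ethanol and orange for MC903, and short lines mark group means. MC903 libraries separate from ethanol libraries by day 5 for Pla2g4e, Ltb4r1 and Ltb4r2, and stay among them for Ltc4s and Cysltr1.

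Alox5 encodes 5-lipoxygenase, the enzyme that commits arachidonic acid to leukotrienes, and Alox5ap encodes FLAP, which presents the fatty acid to it. Alox5 lies on chromosome 6 (116410077 to 116461178, minus strand). The 250 bases before its start (chr6:116461179-116461428, minus strand) are 52.8% G and C and hold 1 GC box, in capitals, 35 bases before the start.
Alox5 promoter: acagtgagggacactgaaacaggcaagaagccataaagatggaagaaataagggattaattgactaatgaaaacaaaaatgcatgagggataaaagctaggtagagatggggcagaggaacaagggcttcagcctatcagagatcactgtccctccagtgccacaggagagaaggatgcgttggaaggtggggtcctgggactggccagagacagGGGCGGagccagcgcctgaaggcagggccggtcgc

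Alox5 was the only member that changed at 6 hours, and it fell. The ethanol libraries held 7.18, 10.6, 11 and 5.73 cpm and the MC903 libraries 5.45, 3.87, 3.22 and 5.60 cpm. All 4 MC903 libraries were below the lowest ethanol library, the closest only narrowly, at 5.60 against 5.73 cpm. The log2 fold change was -0.96 ± 0.19 (adjusted p = 0.0128). In 1 fit over days 1 to 8 the fold was -0.98 with an adjusted p of 0.163. Macrophage markers (8 genes) summed to 498 to 802 cpm in the ethanol and 341 to 512 cpm in the MC903 libraries at the same time point, and the part of that shift in the fall of Alox5 was not tested.

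Later in uninjected wild-type skin Alox5 showed no change past the test: at day 2, 8.53 and 5.60 cpm stood against 6.55, 7.76 and 3.35 cpm, at day 5, 15.1, 13.1 and 4.12 cpm against 10.9, 7.48 and 5.29 cpm, and at day 8, 4.21 to 10.2 cpm (median 5.21) against 4.80, 16.4, 6.79, 9.75 and 6.50 cpm. All 3 pairs of groups overlapped. The day 8 log2 fold change was 0.54 ± 0.29 (adjusted p = 0.204). With aGr1 it rose from 6.56, 4.90, 8.04 and 5.0 cpm to 12.3, 19.9, 11.2 and 8.67 cpm (0.74 ± 0.23, adjusted p = 0.0359). That call was lost without ethanol replicate 1, 2 or 4 or MC903 replicate 1 or 2 (adjusted p of 0.0527 to 0.0838), and the day 8 macrophage markers of these mice summed to 367 to 600 cpm with ethanol and 1129.6 to 2091 cpm with MC903.

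In TSLPR.KO skin the fitted folds of Alox5 were below 0. At day 8 the ethanol libraries held 11.4 and 5.58 cpm and the MC903 libraries 4.74, 4.16 and 3.40 cpm, without overlap (-1.02 ± 0.33, adjusted p = 0.184). At day 12 the values were 6.55, 7.41 and 3.79 cpm with ethanol and 3.39, 4.96, 2.96 and 3.31 cpm with MC903, which overlapped, and the log2 fold change of -0.87 ± 0.24 passed with an adjusted p of 0.0483. It did not pass without any 1 of 5 of the 7 libraries (ethanol replicates 1 and 2, MC903 replicates 1, 3 and 4), with adjusted p values of 0.0571 to 0.177. BLT1.KO skin showed 11.8, 9.98 and 12.8 cpm with ethanol and 10.5, 12.2 and 11.5 cpm with MC903, a log2 fold change of -0.05 ± 0.18, and PBS-injected skin 3.75 to 9.09 cpm against 11.2 and 8.33 cpm (0.54 ± 0.39).

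Alox5ap, the more abundant of the pair per kb of transcript, passed the test in aGr1-injected skin only. There the ethanol libraries held 13.9, 10.2, 13.2 and 8.61 cpm and the MC903 libraries 24.2, 30.5, 23.7 and 20.4 cpm, without overlap (0.75 ± 0.15, adjusted p = 0.00487). PBS-injected skin showed 11.4, 19.4 and 7.03 cpm against 27.8 and 20.9 cpm, also without overlap, with a log2 fold change of 0.98 ± 0.41 and an adjusted p of 0.279 that became 0.0237 without ethanol replicate 2. The aGr1 fold was thus not shown to differ from the PBS one, which was larger and less precise. In uninjected wild-type skin at day 8 the range was 13.9 to 23.9 cpm (median 15.9) with ethanol, and the MC903 libraries held 45.3, 18.1, 24.8, 17.9 and 22.4 cpm, which overlapped (0.52 ± 0.24, adjusted p = 0.14).

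At the other times and in the knockouts the Alox5ap groups overlapped throughout. Its log2 fold change was -0.44 ± 0.16 at day 1 (adjusted p = 0.0978, and 0.0406 without ethanol replicate 1), -0.24 ± 0.43 at day 2 and 0.24 ± 0.24 at day 5, and it was -0.10 ± 0.32 and -0.29 ± 0.23 in TSLPR.KO skin at days 8 and 12 and 0.16 ± 0.17 in BLT1.KO skin. In the annotation, 13.3% of the exon bases of Alox5ap are also covered by an antisense gene, and as the strand setting of the counting is not given in the sources used here, reads of both genes cannot be told apart there.

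Lta4h, which makes LTB4, had the highest counts of the 9 genes in each ethanol-treated skin library of wild-type mice, and its folds were small. At day 8 the ethanol libraries of uninjected wild-type mice ran from 62.5 to 72.9 cpm (median 66.6) and the MC903 libraries held 84.2, 81.4, 88.9, 79.7 and 75.6 cpm. The groups did not overlap, and the log2 fold change of 0.28 ± 0.09 was just past the threshold (adjusted p = 0.0468). Leaving out 1 library at a time lost the call for 10 of the 11 libraries, all but ethanol replicate 2 of cohort A, with adjusted p values up to 0.105. In the other 8 skin comparisons the log2 fold changes ran from -0.43 to 0.40 and none passed, with no overlap at day 5, with PBS and in BLT1.KO skin. In the last it was 0.40 ± 0.15 (adjusted p = 0.0747; 0.0413 in DESeq2, 0.0404 with the replicate block), where 43.2, 52.3 and 58.6 cpm stood against 71.1, 65.7 and 72.4 cpm.

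Ltc4s, the gene of the cysteinyl branch, was low in skin. It rose in aGr1-injected skin, from 2.93, 1.90, 2.35 and 2.31 cpm to 5.66, 7.35, 4.01 and 5.60 cpm (0.88 ± 0.22, adjusted p = 0.0157), with no overlap. In the uninjected wild-type day 8 libraries 1.49 to 3.18 cpm stood against 2.05, 5.30, 3.59, 2.29 and 1.85 cpm, which overlapped (0.41 ± 0.27). With PBS, 1.89, 3.49 and 0.711 cpm stood against 2.07 and 3.11 cpm and overlapped too. The Ltc4s fold with aGr1 was not called different from the uninjected one in the interaction given further on. Mast cells are known for this enzyme, and mast cell markers (7 genes) summed to 94.6 to 152 cpm with ethanol and 278 to 329 cpm with MC903 in the aGr1 libraries, against 87.7 to 142 and 140.3 to 243 cpm in the uninjected ones; their part in the rise of Ltc4s was not tested. In the other 7 skin comparisons its log2 fold change ran from -0.54 to 0.47 and the groups overlapped. An antisense gene covers 26.4% of the Ltc4s exon bases, so the same limit on strand applies.

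Ltb4r1 and Ltb4r2, the receptors of LTB4, lie side by side on the plus strand of chromosome 14. Ltb4r2 runs from 55761428 to 55765138 and Ltb4r1 from 55765962 to 55768494, with no shared exon base in the annotation. The 250 bases before the start of Ltb4r1 (chr14:55765712-55765961) therefore lie within the gap between the neighbours. They are 56.8% G and C and hold 1 GC box on the opposite strand, in capitals, 31 bases before the start.
Ltb4r1 promoter: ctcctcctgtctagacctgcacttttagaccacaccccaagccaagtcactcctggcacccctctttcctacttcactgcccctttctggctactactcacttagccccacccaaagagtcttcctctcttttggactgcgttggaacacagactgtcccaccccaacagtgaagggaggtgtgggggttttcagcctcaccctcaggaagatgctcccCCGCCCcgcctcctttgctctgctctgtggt
Set beside each other, the printed promoters of Ltb4r1 and Alox5 each hold a GC box at a similar distance from the start and that of Pla2g4e holds none. These were the only 2 of the 7 promoters listed for members to hold the box, against 32.7% of all promoters. Neither of the 2 exact forms of the DR3 element (the direct repeat with a spacer that the vitamin D receptor is known to bind) searched on both strands occurred in any of the 7 promoters listed for 6 of the members, and each occurred in 2 of the 32851 promoters (0.00609%), which says only that these exact forms are not in these windows. No promoter is listed for Alox5ap, Ltb4r2 or Cysltr1.

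Ltb4r1 was the member with the largest fold change at day 8, and the fitted fold was larger at each later day, a difference between days that was not tested. At day 1, 8.05, 9.76, 8.57 and 7.25 cpm with ethanol stood against 13.4, 11.6, 7.74 and 10.2 cpm with MC903 and overlapped (0.30 ± 0.14, adjusted p = 0.162). At day 2, 9.97 and 8.57 cpm stood against 14.7, 28.7 and 19 cpm, without overlap but with an adjusted p of 0.898 (1.11 ± 0.41; 0.0331 in 1 fit over days 1 to 8). At day 5, 9.62, 9.76 and 5.42 cpm stood against 37.3, 27.1 and 23 cpm (1.75 ± 0.22, adjusted p = 0.00243).

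At day 8 the 6 ethanol libraries of uninjected wild-type skin held 6.66 to 10.5 cpm of Ltb4r1 (median 9.14). The MC903 libraries of cohort A held 77.6, 69.9 and 54.6 cpm and those of cohort B 33.5 and 36.4 cpm. All were above every ethanol library, and the log2 fold change was 2.53 ± 0.18 (adjusted p = 1e-06). Within each cohort alone the call held, and in the fits that each omitted 1 library the fold ran from 2.42 to 2.65 and the call held.

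Ltb4r1 also rose in PBS-injected skin, from 5.67, 8.29 and 4.94 cpm to 25 and 22.1 cpm (1.93 ± 0.27, adjusted p = 0.0154), and in aGr1-injected skin, from 3.51, 2.52, 6.33 and 3.26 cpm to 25.9, 26.3, 21.2 and 17.5 cpm (2.22 ± 0.20, adjusted p = 7.68e-05). The PBS call was lost without ethanol replicate 1 or either MC903 library (adjusted p of 0.1 to 0.147) and with the replicate block (0.053). The MC903 libraries of both injected groups thus lay below all uninjected MC903 libraries of day 8, and 6 of their 7 ethanol libraries lay below the lowest uninjected ethanol library. Whether the injection or the set of mice goes with this lower level cannot be told apart.

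In TSLPR.KO skin the Ltb4r1 groups separated by less. At day 8, 13.4 and 11.5 cpm with ethanol stood against 20.8, 19.5 and 23.7 cpm with MC903, with a log2 fold change of 0.80 ± 0.22 and an adjusted p of 0.117 (0.026 in DESeq2). Both ethanol libraries were above the wild-type range and all 3 MC903 libraries below it. At day 12, 5.65, 7.46 and 1.45 cpm stood against 15.4, 10.7, 17.4 and 9.87 cpm (1.34 ± 0.41, adjusted p = 0.0698; 0.00946 in DESeq2). Crlf2, the gene deleted in these mice, held 2 to 8 counts per library at day 8, or 0.0691 to 0.277 cpm, and 18 to 60 counts at day 12, where the highest library reached 1.34 cpm, against 2.24 to 15.4 cpm in the 43 wild-type skin libraries.

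Whether the fold in TSLPR.KO skin differs from that in wild-type skin at day 8 was tested as an interaction, in which 0.177% of genes passed, 0.166% with a lower fold in TSLPR.KO skin. Ltb4r1 was the 1 member of 9 called, with a difference of -1.71 ± 0.30 on the log2 scale (adjusted p = 0.0302). The call was lost with the replicate block (-1.83, adjusted p = 0.136) and with cohort B alone as the wild-type side (-1.25, 0.204). It was also lost when TSLPR.KO ethanol replicate 1, any of the 3 TSLPR.KO MC903 libraries, wild-type cohort A ethanol replicate 2 or 1 of the cohort A ethanol libraries numbered 3 was left out, with adjusted p values of 0.0535 to 0.324 and differences of -1.84 to -1.59. Ltb4r2 (-1.08 ± 0.34, adjusted p = 0.233), Alox5 (-1.52 ± 0.51, 0.25) and Pla2g4e (-0.86 ± 0.32, 0.293) also had lower fitted folds in TSLPR.KO skin and did not pass.

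Ltb4r1 is the gene targeted in the libraries labelled BLT1.KO, and it was still counted there. Their ethanol libraries held 2.33, 3.70 and 3.02 cpm (148 to 184 counts) and their MC903 libraries 10.6, 12.4 and 15.1 cpm (565 to 922 counts). Both groups lay below every uninjected wild-type library of the same treatment at day 8, yet the ethanol levels overlapped those of aGr1-injected wild-type mice (2.52 to 6.33 cpm), and the MC903 fold was 2.05 ± 0.26 on the log2 scale (adjusted p = 0.000522). Which part of the transcript the allele removes is not given in the sources used here, so a gene-level count cannot check this label. The neighbour Ltb4r2 rose too, from 4.75, 4.30 and 3.47 cpm to 12.4, 6.69 and 8.34 cpm (1.08 ± 0.24, adjusted p = 0.0104).

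No member passed the interaction of BLT1.KO with wild-type day 8 skin in edgeR (6.95% of genes did, with 5991 at an unadjusted p under 0.05) or in DESeq2. The fold of Ltb4r1 differed by -0.44 ± 0.32 (adjusted p = 0.457), that of Ltb4r2 by -0.84 ± 0.31 (0.117) and that of Pla2g4e by -0.72 ± 0.28 (0.141); the last became 0.0455 without BLT1.KO ethanol replicate 3 and that of Ltb4r2 0.0458 without wild-type cohort B ethanol replicate 2. In the aGr1 interaction no member passed in edgeR either (4.56% of genes did, with 5630 at an unadjusted p under 0.05). Pla2g4e came closest, with a fold larger by 0.87 ± 0.27 in aGr1 skin (adjusted p = 0.068). It passed in DESeq2 (0.88, 0.0205), without aGr1 ethanol replicate 3 (0.0119) and without wild-type cohort B ethanol replicate 1 (0.0391), and with PBS-injected mice as the comparator the difference was 0.19 (0.875). All 3 interactions share the uninjected wild-type day 8 libraries, so they are not independent of each other.

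**Figure D3:**
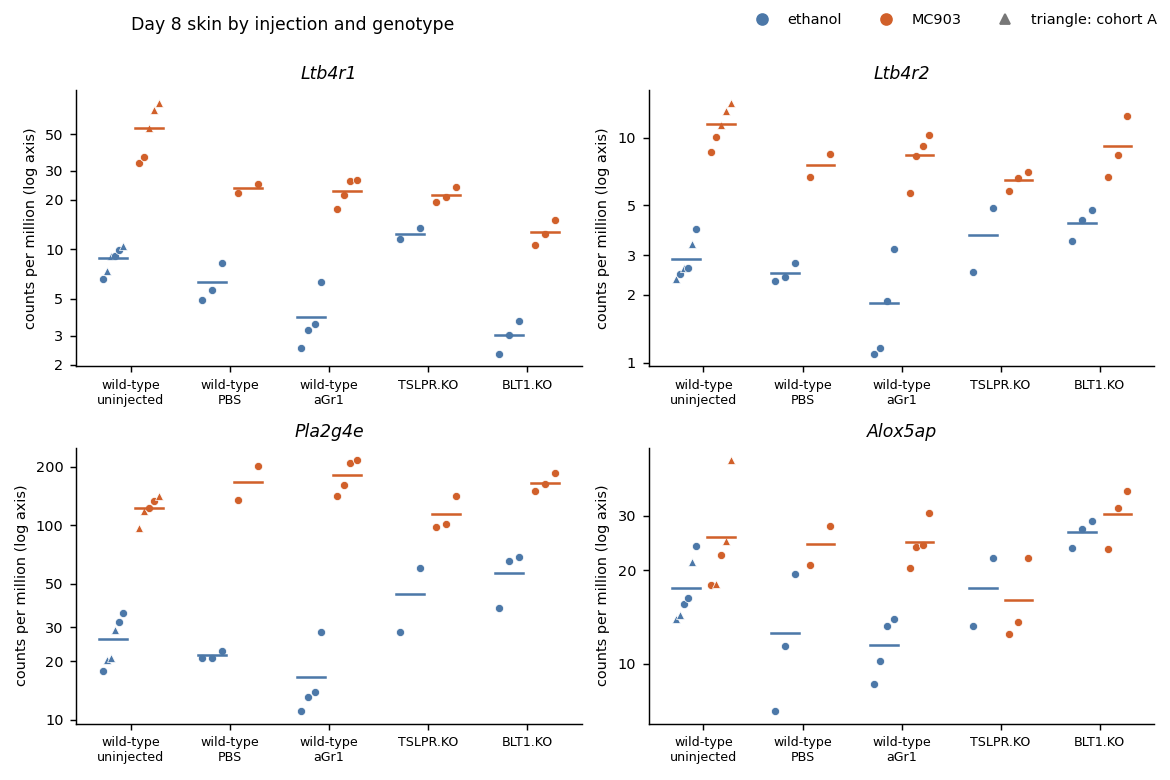
Level in cpm (log axis) of Ltb4r1, Ltb4r2, Pla2g4e and Alox5ap in day 8 skin for 5 conditions; each point is 1 library, blue for ethanol and orange for MC903, triangles mark cohort A of the uninjected wild-type mice and short lines are group means. Ltb4r1 MC903 libraries reach 77.6 cpm in uninjected wild-type skin and at most 26.3 cpm in the other conditions, and the 2 Pla2g4e ethanol libraries with the highest levels, 65.3 and 68.6 cpm, are of BLT1.KO skin.

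Ltb4r2 followed its neighbour at a lower level. At day 1, 2.82 to 4.97 cpm with ethanol stood against 4.47 to 6.08 cpm with MC903, and at day 2, 4.17 and 2.21 cpm against 4.56, 9.56 and 3.6 cpm, both with overlap. At day 5 it rose from 2.66, 3.29 and 3.43 cpm to 11.6, 8.03 and 8.95 cpm (1.47 ± 0.28, adjusted p = 0.0133; 0.0544 without ethanol replicate 2). At day 8 it rose from 2.36 to 3.91 cpm (median 2.63) to 13.1, 14.3, 11.4, 10.1 and 8.63 cpm (1.97 ± 0.18, adjusted p = 8.92e-06), without overlap.

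The rise of Ltb4r2 was called in the injected mice as well, 2.30 to 2.79 cpm against 8.42 and 6.71 cpm with PBS (1.62 ± 0.24, adjusted p = 0.0198) and 1.16, 1.10, 3.21 and 1.87 cpm against 10.3, 9.13, 8.32 and 5.65 cpm with aGr1 (1.86 ± 0.30, adjusted p = 0.00184). The PBS call rests on few libraries: it was lost without ethanol replicate 1 or 3 or either MC903 library, with adjusted p values of 0.0678 to 0.186, and with the replicate block (0.13). In TSLPR.KO skin Ltb4r2 stood at 4.84 and 2.53 cpm against 5.77, 7.04 and 6.63 cpm at day 8 (0.85 ± 0.33, adjusted p = 0.275) and rose from 1.53, 2.52 and 0.681 cpm to 5.69, 5.46, 7.79 and 4.85 cpm at day 12 (1.79 ± 0.32, adjusted p = 0.00945; 0.0862 with the replicate block). No pair of these groups overlapped.

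Cysltr1, the receptor of the cysteinyl leukotrienes, was called in no skin comparison and its groups overlapped in all 9. Its log2 fold change was below 0 in 8 of them, from -0.68 ± 0.34 at day 5 (11.5, 11.7 and 3.43 cpm against 5.90, 6.06 and 4.81 cpm; adjusted p = 0.223, and 0.0168 without ethanol replicate 3) to 0.20 ± 0.34 at uninjected day 8. The day 8 ethanol libraries spread from 1.34 to 11.5 cpm, wider than the MC903 libraries, at 2.52 to 6.40 cpm. Cysltr2, the other receptor of this family and not a member here, was near the limit of counting in skin, with group means of 0.154 to 0.742 cpm.

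In trigeminal ganglia no member passed the test (adjusted p under 0.1, the study's threshold for this tissue) in any of the 8 comparisons, where 0% of genes passed at days 1 and 2 and in TSLPR.KO mice at day 8, and 0.00823%, 0.16%, 3.36%, 1.88% and 0.304% passed at day 5, at day 8, with PBS, with aGr1 and in TSLPR.KO mice at day 12. DESeq2 called no member in them either. At an unadjusted p under 0.05 stood Pla2g4a and Cysltr1 at day 1, Alox5ap with PBS, Pla2g4e with aGr1, Cysltr1 in TSLPR.KO mice at day 8, and Alox5 and Alox5ap in the libraries labelled TSLPR.KO at day 12. Of all genes tested, 2034 of 25319 stood there at day 1, 3399 of 23708 with PBS and 3095 of 24233 with aGr1. In libraries labelled TSLPR.KO it was 1886 of 23402 at day 8 and 1874 of 25969 at day 12. Without the uninjected ethanol library that held 4 Crlf2 counts, no member passed at day 8 either, while 71 genes passed in place of 41, and the log2 fold changes of Alox5 and Ltc4s went from -0.25 and -0.17 to 0.77 and 0.83 (adjusted p = 0.778 and 0.91). With the replicate block, Alox5ap (0.71, adjusted p = 0.0233) and Pla2g4a (0.52, 0.0348) passed with PBS. That fit called 3479 of the 23708 genes tested, against 796 without the block. Both members also passed without MC903 replicate 4, at 0.0294 and 0.0588.

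Pla2g4a at day 1 had the largest of these folds. The ethanol libraries held 1.43 to 7.37 cpm and the MC903 libraries 25.4, 17.7, 8.25 and 7.66 cpm, which did not overlap (1.5 ± 0.51, adjusted p = 0.574). Spinal cord markers (5 genes) also ran higher in the MC903 libraries of that day, 5273 to 12563 cpm against 3538 to 5998 cpm, and replicates 1 and 2 were the highest in both measures; their part was not tested. Cysltr2, which binds cysteinyl leukotrienes and is known as a marker of itch neurons, did rise with PBS, from 4.89, 5.27 and 5.76 cpm to 8.73 to 10.4 cpm in 4 libraries (0.81 ± 0.11, adjusted p = 0.0026), and with aGr1, from 2.19 to 4.94 cpm to 5.82 to 7.53 cpm (0.81 ± 0.21, adjusted p = 0.0967). The aGr1 call was lost with any of 7 of the 8 libraries left out, all but ethanol replicate 2 (adjusted p of 0.13 to 0.235), and with DESeq2's size factors (0.1). Its MC903 libraries also stood above all ethanol libraries, without passing, in uninjected mice at day 5 (3.42, 3.39 and 1.85 cpm against 8.74, 5.51 and 8.44 cpm, 1.44 ± 0.33) and in libraries labelled TSLPR.KO at day 8 (3.45 and 3.45 cpm against 4.88 and 5.55 cpm, 0.66 ± 0.35) and day 12 (5.49 to 6.30 cpm against 6.60 to 7.72 cpm, 0.34 ± 0.11). With so few libraries a group, separation can occur without a change, and the share of all genes that separated was not computed. At uninjected day 8 the Cysltr2 groups overlapped (0.92 ± 0.30, adjusted p = 0.6), though within cohort A 3.22 and 4.52 cpm stood against 7.35 and 8.66 cpm, and they overlapped at days 1 and 2.

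Spinal cord was the tissue in which Pla2g4a fell. In uninjected mice at day 8 the ethanol libraries held 16.4, 25.1, 24.4, 21.6 and 24.4 cpm and the MC903 libraries 4.74, 5.77, 8.47 and 3.67 cpm. Every MC903 library was below every ethanol library, and the log2 fold change was -1.99 ± 0.19 (adjusted p = 1.9e-05). With Pla2g4e, which rose, 2 of 9 members were called, against 12.2% of the genes tested (5.05% higher and 7.14% lower). When single libraries were omitted the fold ran from -2.24 to -1.85.

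Pla2g4a fell in the injected mice with aGr1 too, where the 6 ethanol libraries ran from 17.7 to 21 cpm (median 18.9) and the 8 MC903 libraries from 4.84 to 12.2 cpm (median 8.19), without overlap (-1.22 ± 0.14, adjusted p = 1.03e-05; 3 of 9 members were called, 2 higher and 1 lower, against 11.3% of genes, 4.54% higher and 6.79% lower). With PBS, 24.2 and 24.2 cpm stood against 7.12 and 14.6 cpm (-1.16 ± 0.32), but with 2 libraries a group 0% of genes passed in edgeR (1571 had an unadjusted p under 0.05, Pla2g4a among them) and its adjusted p was 0.581. DESeq2, which called 178 genes there, gave it 0.0149. Fits without 1 library leave a single library in a group there, so they cannot be read as calls and are not given.

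Pla2g4e rose in the cord, at a much lower level than in skin. It went from 1.38, 2.91, 2.94, 2.43 and 3.56 cpm to 7.30, 6.03, 4.37 and 6.78 cpm in uninjected mice (1.22 ± 0.23, adjusted p = 0.00296) and from 5.71 to 6.73 cpm (median 6.02) to 7.49 to 12.3 cpm (median 8.80) with aGr1 (0.61 ± 0.11, adjusted p = 0.00149), both without overlap. With PBS, 6.08 and 5.58 cpm stood against 13.1 and 6.52 cpm (0.70 ± 0.30, adjusted p = 0.797). The ethanol libraries of both injected groups were above the highest uninjected ethanol library of 3.56 cpm. In the annotation 2.2% of the exon bases of Pla2g4e overlap another transcript.

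Alox5 rose in the cord of aGr1-injected mice, from 1.02 to 1.88 cpm (median 1.49) to 2.06 to 3.73 cpm (median 2.41) without overlap (0.84 ± 0.16, adjusted p = 0.00136). In uninjected mice 0.0587 to 1.39 cpm stood against 0.728 to 1.61 cpm with overlap (0.55 ± 0.50), and the difference between these folds was not tested. Microglia markers were lower with MC903 in all 3 cord comparisons, as a sum of 4 genes 120.003 to 143 cpm against 49.5 to 81.8 cpm in uninjected mice and 96.8 to 106 cpm against 52.3 to 84.9 cpm with aGr1, and all 4 passed the test in both. Spinal cord markers (5 genes) summed to 21919.8 to 23419 cpm with ethanol and 20988 to 25053 cpm with MC903 in the uninjected groups. The part of the microglial shift in the fall of Pla2g4a was not tested.

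**Figure D4:**
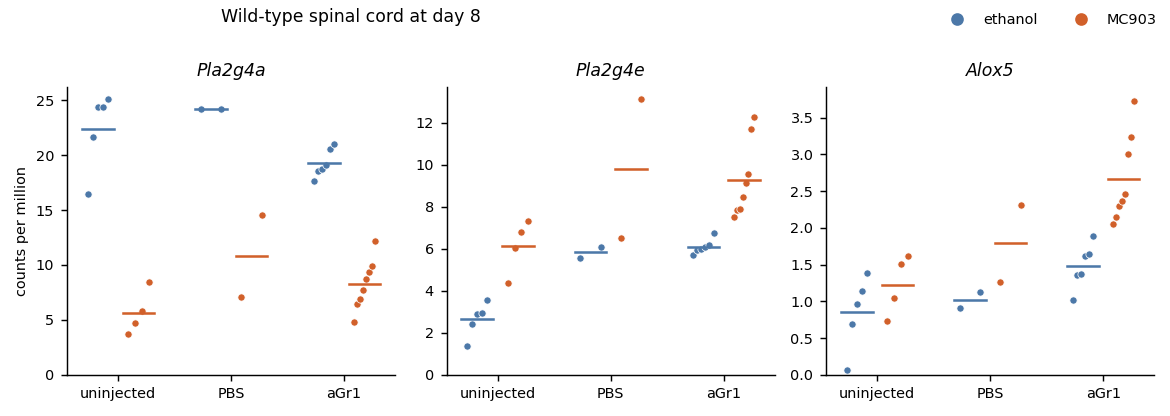
Level in cpm (vertical axis, from 0) of Pla2g4a, Pla2g4e and Alox5 in wild-type spinal cord at day 8 for uninjected, PBS-injected and aGr1-injected mice; each point is 1 library, blue for ethanol and orange for MC903, with group means as short lines. Pla2g4a is lower and Pla2g4e higher with MC903 in all 3 conditions, with no overlap of libraries.

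Per kb of exon, the order of the members in ethanol-treated uninjected wild-type mice at day 8 differed by tissue. In skin (6 libraries) Alox5ap, at 12.3 ± 2.87 cpm per kb (SD), and Lta4h, at 11.1 ± 0.72 cpm per kb, were level within their spread, followed by Ltb4r1 at 6.32 ± 1.06, Pla2g4a at 4.26 ± 0.76 and Pla2g4e at 3.73 ± 1.03, of which the last pair did not differ beyond its spread either. Ltc4s stood at 2.15 ± 0.62, Alox5 at 1.47 ± 0.53, Cysltr1 at 1.01 ± 0.67 and Ltb4r2 at 0.78 ± 0.16 cpm per kb, with neighbours overlapping. Lta4h was the most even across tissues, with 8.84 ± 0.91 cpm per kb in ganglia and 8.20 ± 0.84 in cord (5 libraries each).

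The receptors of LTB4 were low outside skin. Over all libraries Ltb4r1 held 0 to 64 counts per library in ganglia and 0 to 35 in cord (at most 2.92 and 1.54 cpm), and Ltb4r2 0 to 8 in each (at most 0.346 and 0.351 cpm), where 3 counts was taken as the limit that a count of 0 allows, for counting error only. In cord the fold of Ltb4r1 was 1.73 ± 0.65 in uninjected mice (adjusted p = 0.109; 0.0498 in DESeq2), at 0 to 0.253 cpm against 0.222 to 0.821 cpm. Pla2g4a in cord (3.50 ± 0.56 cpm per kb) came near its skin level, and in ganglia it was 0.524 ± 0.286 cpm per kb. Alox5ap was 2.65 ± 0.21 in cord and 1.69 ± 0.53 in ganglia. Without the ganglia library that held 4 Crlf2 counts, an omission chosen after seeing the data, these ganglia levels were 0.577 ± 0.3 for Pla2g4a, 1.77 ± 0.574 for Alox5ap and 8.62 ± 0.881 cpm per kb for Lta4h (4 libraries). These orders are descriptions across tissues that were not tested against each other.

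**Figure D5:**
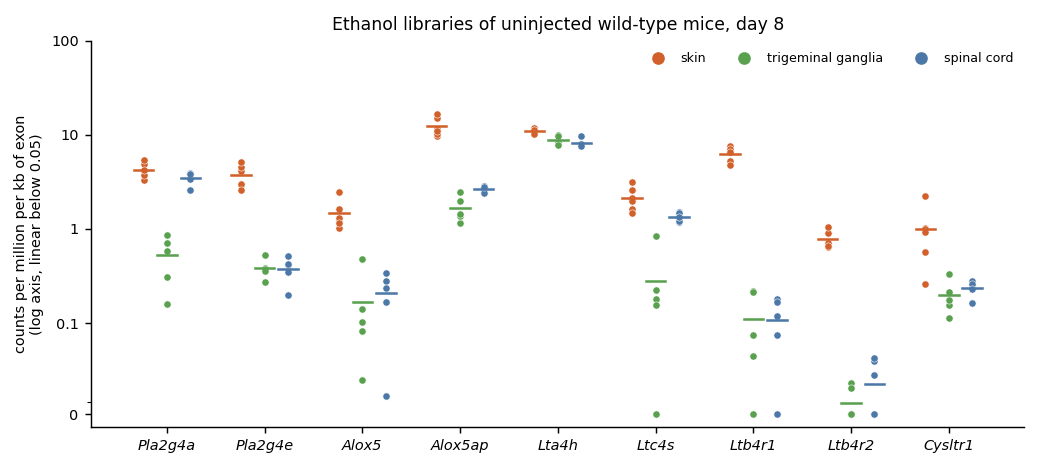
Level in cpm per kb of exon (vertical axis, logarithmic above 0.05 and linear below) of the 9 genes in ethanol libraries of uninjected wild-type mice at day 8; points are libraries of skin (orange, 6), trigeminal ganglia (green, 5, with the 1 that held 4 Crlf2 counts) and spinal cord (blue, 5), and short lines are means. Lta4h is at a similar level in all 3 tissues, while Ltb4r1 and Ltb4r2 are at or near 0 outside skin.

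Across the 18 skin groups (9 comparisons, ethanol and MC903) the group means of log2(cpm + 0.5) of Ltb4r2 and Pla2g4e had a Pearson r of 0.88, and those of Ltb4r1 had r of 0.85 with Ltb4r2 and 0.83 with Pla2g4a. Among the members Alox5 was closest to Alox5ap (r = 0.68), and its r was 0.03 with Ltb4r1, 0.25 with Ltb4r2 and 0.09 with Cysltr1. Alox5ap had r of 0.59 with Ltb4r2. Among the 17599 genes with a mean of at least 1 cpm, the closest to Pla2g4e were Slc10a6 (0.96), Defb1 (0.96) and 4732465J04Rik (0.95), to Ltb4r1 Ddias (0.90), Rps12-ps11 (0.90) and Gm11714 (0.89), to Ltb4r2 Slc6a20a (0.96), Gm4887 (0.95) and Gm6166 (0.95), and to Pla2g4a Plek2, Glo1 and Pls3 (each 0.94). Alox5ap was closest to Itpripl1 (0.94), Tmem37 (0.91) and Fcer1g (0.90), and Alox5 to Hoxd9, C4a and Npr1 (0.85, 0.84 and 0.84). Lta4h was closest to Spg21, Ripk4 and Cib1 (0.96, 0.96 and 0.95), Ltc4s to Irak3, Foxp4 and Tmem43 (0.79, 0.75 and 0.75) and Cysltr1 to Zfp874a, Mbnl1 and Rgs18 (0.82, 0.79 and 0.78). These are descriptions over 18 points that share treatments and library batches.

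The other genes of the leukotriene pathway, a list of 14, gave 7 higher and 1 lower of 13 tested in uninjected wild-type skin at day 8 (23.4% of all genes tested were called there, 12.2% higher), with a median log2 fold change of 0.59. Cotl1, whose protein binds 5-lipoxygenase, rose by 2.0 ± 0.19 on the log2 scale (12.1 ± 1.07 to 52.9 ± 20.5 cpm, SD), Cyp4f18, a neutrophil enzyme that inactivates LTB4, by 2.21 ± 0.24 and Mgst2, which can make LTC4, by 1.70 ± 0.25, whereas Mgst3 changed by -0.91 ± 0.20. Of the 14 other phospholipases A2, 6 rose and 1 fell (median 0.43) against the same 23.4%, led by Pla2g4d, a relative of Pla2g4e in the same gene cluster, at 6.79 ± 0.31 (0.302 ± 0.235 to 38.1 ± 23 cpm), Pla2g4f at 1.73 ± 0.12 and Pla2g7, which degrades platelet-activating factor, at 1.39 ± 0.24. Pla2g2e, a secreted form, was the 1 that fell (-1.49 ± 0.44). At day 1, 6 hours in, Pla2g4f was already up by 2.15 ± 0.12 (adjusted p = 1.85e-05), while Pla2g4e had a log2 fold change of 0.15 ± 0.13 (adjusted p = 0.476).

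Of the 19 genes of the prostaglandin branch, which draws on the same arachidonic acid, 6 rose and 5 fell at day 8 (median 0.13), against 23.4% of all genes called and 12.2% called higher. Ptgs2, the inducible cyclooxygenase, rose from 4.66 ± 0.98 to 307 ± 87.5 cpm (6.02 ± 0.24, adjusted p = 4.86e-09) and Ptges, which makes PGE2, from 22.6 ± 4.92 to 212 ± 57.9 cpm (3.17 ± 0.17), while Hpgd, which breaks prostaglandins down, changed by -1.14 ± 0.20 and the receptor Ptger3 by -1.08 ± 0.16. Of 6 other lipoxygenases 3 rose and 1 fell (median 0.27, against the same 23.4%): Alox12b and Aloxe3, enzymes of the skin barrier, by 1.31 ± 0.11 and 0.64 ± 0.15, Alox15 by 1.77 ± 0.39, and Alox12e by -1.44 ± 0.28. In TSLPR.KO skin at day 8 Alox15 fell instead (-1.98 ± 0.42, adjusted p = 0.0421), and Pla2g4d (4.90 ± 0.42), Pla2g4f (1.72 ± 0.22) and Ptgs2 (6.44 ± 0.40) rose. In uninjected cord the phospholipase Pla2g3 rose from 8.52 ± 1.24 to 41 ± 5.52 cpm (2.26 ± 0.11, adjusted p = 3.54e-08) and Gpr17, a receptor gene of oligodendrocyte precursors, fell from 34.3 ± 5.10 to 8.33 ± 3.23 cpm (-2.05 ± 0.21, adjusted p = 2.64e-05), as they did with aGr1 (1.18 ± 0.13 and -1.33 ± 0.09).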

How the data were processed

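Raw read counts per gene were deposited by the authors for each library: single-end 50-base poly(A) reads, aligned to mm10 with Bowtie2 and TopHat and counted with HTSeq. The annotation release and strand setting are not given in the sources used here. Tally lines (9 to 32.2% of a file) were left out. Values per library are cpm, counts scaled to a common total of gene counts. Fold changes come from edgeR 4.0.16 (R 4.3.3) with TMM scaling, so they can differ from ratios of the printed levels. Genes with at least 10 counts over the libraries of a fit entered the quasi-likelihood test, with Benjamini-Hochberg adjustment over all of them and thresholds of 0.05 (0.1 in ganglia); this replaces the study's DESeq. Uninjected wild-type day 8 skin and ganglia carried a term for 2 cohorts, told by title style. In cohort A skin some replicate numbers repeat within a treatment. Those libraries were fitted as separate ones, and the labels do not say whether they come from separate mice. DESeq2 1.42.0, other scaling, no count filter, a replicate block and leaving out each library were alternatives. Replicate numbers were not taken to pair libraries, as no comparison with 3 or more pairs had all correlations over 0.1. This rule cannot exclude pairing, and day 2 skin, with 2 pairs, had correlations of 0.178 and 0.127. No 2 libraries held identical counts. Statements on overlap describe the printed libraries, and the share of all genes that did not overlap was not computed. The scripts were tested on simulated data. Members, lists and rules for named genes (all 9 members; up to 3 genes of smallest p per list and direction; Cysltr2 in ganglia; the 3 closest patterns per member) were chosen with earlier results of these data known. Symbols came from GENCODE M21 (45229 of 46078 identifiers matched), promoters from RefSeq.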

Additional observations from a re-analysis of the deposited data

Results flagged for a closer look

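Of 178 sets of values (each gene in each of the 20 groups of 4 to 10 libraries), 18 had a library far from the others by Dixon's test, a rule that flags about 1 in 20 sets by chance. In aGr1-injected ethanol skin, replicate 3 was the highest for Pla2g4a (22.3 cpm, the nearest library 12.9), Pla2g4e (28.3 and 13.9) and Cysltr1 (10.8 and 5.52). In aGr1-injected MC903 skin, replicate 1 was the highest for Pla2g4a (44.9 and 33.5). In TSLPR.KO MC903 skin of day 12, replicate 3 was highest for Alox5ap (24.4 and 16.2), replicate 2 for Pla2g4a (35.2 and 31.6) and replicate 4 for Pla2g4e (135 and 102). In uninjected wild-type MC903 skin, a cohort A library of day 8 was highest for Alox5ap (45.3 and 24.8) and replicate 4 of day 1 for Pla2g4a (25.9 and 21.7).

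In spinal cord, ethanol replicate 1 of the uninjected mice was highest for Lta4h (59.1 and 48.4 cpm), and MC903 replicate 1 of the aGr1-injected mice was highest for Ltb4r1 (1.54 and 0.695) and Ltb4r2 (0.351 and 0.168). In trigeminal ganglia at day 8, the library labelled uninjected wild-type ethanol, number 2 of cohort B, whose 4 Crlf2 counts go against its label, was highest for Alox5 (1.96 and 0.579) and Ltc4s (0.85 and 0.226), and an MC903 library numbered 2 for Cysltr1 (1.02 and 0.592). Pla2g4e was highest in MC903 replicate 1 of day 1 ganglia (3.6 and 2.3). Ltb4r2 was at a few counts throughout ganglia: it was lowest in TSLPR.KO day 12 ethanol replicate 3 (0.026 and 0.0472) and above 0 in only 1 aGr1 ethanol library, replicate 2 (0.145).

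The MC903 effect on Ltb4r1 differed between TSLPR.KO and wild-type day 8 skin by -1.71 on the log2 scale in the test of the difference itself (edgeR, adjusted p = 0.0302). It was called in the fit as designed and not with the replicate block or with cohort B alone as the wild-type side.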

How the results depend on the processing

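No member's called fold changed direction under any alternative. With DESeq2, the members called were 2 in TSLPR.KO day 8 skin, 1 in PBS cord and 1 in the aGr1 interaction (0 in edgeR in each). Without the count filter TSLPR.KO day 8 skin had 1. With the replicate block, the members called were 1 at day 2 (from 0), 1 in PBS skin (from 3), 1 in TSLPR.KO day 8 skin (from 0), 1 in TSLPR.KO day 12 skin (from 4), 2 in PBS ganglia (from 0), 1 in PBS cord (from 0) and 0 in the TSLPR.KO interaction (from 1). A crossed pairing of PBS cord, chosen after seeing the data, gave 2. In 1 fit over days 1 to 8, day 1 had 0 (from 1) and day 2 had 2 (from 0). Cohort B alone gave 3 at day 8 (from 5) and, as the wild-type side, 0 in the TSLPR.KO interaction.

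Leaving out 1 library at a time gave 1 to 2 members at day 1, 0 at day 2, 2 to 5 at day 5, 4 to 5 at day 8, 1 to 4 with PBS, 6 to 7 with aGr1, 0 to 1 and 2 to 4 in TSLPR.KO skin at days 8 and 12, and 4 to 5 in BLT1.KO skin. In ganglia it gave 0 to 2 with PBS and 0 at days 1, 5 and 8, with aGr1 and in libraries labelled TSLPR.KO at day 12. In cord it gave 2 in uninjected mice and 3 to 5 with aGr1, and in each interaction 0 to 1. Where 1 library was left in a group, it was taken to vary like the others. Member counts from such fits cannot be read as calls, and those of PBS cord and of day 2 and TSLPR.KO day 8 ganglia are left out. The skin counts at day 2, with PBS and in TSLPR.KO mice at day 8 include such fits. The share of all genes called in each of these fits is not given here, so the member counts cannot be set against it.

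The number of genes past the threshold moved by over 1.5 times. With DESeq2 it was 280 at day 2 (from 0), 2118 in PBS skin (from 973), 1313 and 4009 in TSLPR.KO skin at days 8 and 12 (from 594 and 2550), 78, 65, 49 and 210 in ganglia at days 1, 2, 5 and 8 (from 0, 0, 2 and 41), 887 in aGr1 ganglia (from 456), 185 and 260 in TSLPR.KO ganglia (from 0 and 79), 178 in PBS cord (from 0), and 2515, 548 and 3157 in the aGr1, TSLPR.KO and BLT1.KO interactions (from 1269, 48 and 1924). With the block it was 1795 at day 1 (from 3213), 876 at day 2, 641 in PBS skin, 1274 and 548 in TSLPR.KO skin, 16, 54 and 3479 in day 2, day 5 and PBS ganglia (the last from 796), 480 and 356 in TSLPR.KO ganglia at days 8 and 12, 1747, 224 and 1993 in uninjected, PBS and aGr1 cord (from 3118, 0 and 3132), and 747 and 1 in the aGr1 and TSLPR.KO interactions. Without the count filter it was 27 at day 2, 1401 in TSLPR.KO day 8 skin, 177, 30, 493, 1271 and 1063 in day 2, day 5, day 8, PBS and TSLPR.KO day 8 ganglia, 80 in PBS cord and 100 in the TSLPR.KO interaction. In 1 fit over days 1 to 8 it was 460 at day 1 and 995 at day 2. Cohort B alone gave 2258 in day 8 skin (from 6125), 1 in day 8 ganglia and 5 and 1010 in the TSLPR.KO and BLT1.KO interactions, cohort A alone 63 and the fit without a cohort term 5 in day 8 ganglia, PBS-injected mice as the comparator 62 in the aGr1 interaction, and the crossed pairing 955 in PBS cord. In ganglia Ltb4r2 held 0 to 8 counts per library and had enough counts for 2 of 8 comparisons.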

Other observations

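Among wild-type mice at day 8, the ethanol libraries of injected mice held less Lta4h than those of uninjected mice in skin and spinal cord, and in ganglia with PBS. In skin the uninjected wild-type libraries held 62.5 to 72.9 cpm, the PBS libraries 40.5 to 49.1 cpm and the aGr1 libraries 29 to 47.8 cpm. In ganglia the ranges were 47.9 to 60.3, 37.2 to 43 and 45.4 to 48.3 cpm, of which the last overlaps the first, and in spinal cord 46.7 to 59.1, 28 to 31.5 and 34.6 to 41 cpm. The uninjected ethanol skin libraries of BLT1.KO mice, at 43.2, 52.3 and 58.6 cpm, overlapped the injected ones, and those of TSLPR.KO mice held 72.6 and 77.1 cpm. These differences were not tested, and injection cannot be told apart from the set of mice and libraries.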
